A study of Mus musculus with 192 samples.

Results

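A single plate of sorted burst-forming units-erythroid (BFU-E) was split by 4 transcripts of committed red cell progenitors. In it, 36 wells with little or none of them were set against 56 wells with more. The classes were chosen from measured values: the counts of Gata1, Klf1, Epor and Mfsd2b were summed per well as counts per 1000000 (CPM), and wells under 100 CPM were called non-erythroid and those at or above it erythroid. All wells with at least 100000 counts and 2000 genes were used, which was 92 of the 96 wells of the BFU-E plate in a series of 192 cells. The comparison covers all genes other than those 4. The mice were C57/Bl6J embryos at day 14.5, their livers gave all cells, and each cell was profiled as a full-length single-cell library by the SmartSeq2 method. Before the sort, antibodies to the lineage markers CD45R, CD3e, Ter119, CD11b and Ly-6G, and to CD41, CD16/32 and Sca-1, were used to deplete other cells, and the rest received stains for CD24, CD71 and CD117. Both classes therefore share genotype, age, tissue, depletion, plate and sequencing lane; the sources used here give neither the sort gates nor the animals behind each well.

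BFU-E are the earliest progenitors committed to red cells, and in the fetal liver they arise beside progenitors of granulocytes, monocytes, mast cells and megakaryocytes. GATA1 and KLF1 switch on genes for heme synthesis and the red cell membrane, and the erythropoietin receptor EPOR carries the survival signal of this lineage. PU.1, IRF8 and C/EBP factors act in the same way for granule enzymes, phagocyte oxidase and the cytokine receptors of myeloid cells, and GATA1 and PU.1 each restrain the other's targets.

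By these transcripts, 36 of the 92 kept wells went against their label, BFU-E. Non-erythroid wells held from 0 to 42.7 CPM of the 4-gene sum (median 4.04), against 100.2 to 2432 CPM (median 1315) in erythroid wells. They made up 39.1% of the kept wells (exact 95% binomial interval 29.1 to 49.9), and 2 to 4 of them lay in each of the 12 groups of wells that share a first sequencing index. On the plate sorted as later colony-forming units-erythroid (CFU-E), 3 of 89 kept wells, 3.37% (0.701 to 9.54), lay under the same level. The gates of either sort are not stated, and their part in these shares was not tested. The 5 non-erythroid wells nearest the split had sums of 14.8, 17.9, 30.2, 31.9 and 42.7 CPM, and the 5 nearest erythroid wells had 100.2, 115.7, 151.1, 175.0 and 594 CPM. Some of the wells just above the split carried transcripts of both kinds. BFU-E well 91, at 100.2 CPM, held 1083 CPM of Flt3, 794 CPM of Csf1r and 1783 CPM of Cd34. Its sum came from Epor (37.8 CPM) and Mfsd2b (62.5 CPM) only, with Gata1 and Klf1 at 0. BFU-E wells 54 and 12, at 115.7 and 151.1 CPM, held 5540 and 5457 CPM of Mpo beside 1140 and 1279 CPM of Apoe. When wells were clustered on the 1000 most variable genes without the 4 rule genes, all 36 non-erythroid wells fell in a cluster with these 3 wells, and the other 53 erythroid wells formed the second cluster.

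**Figure D1:**
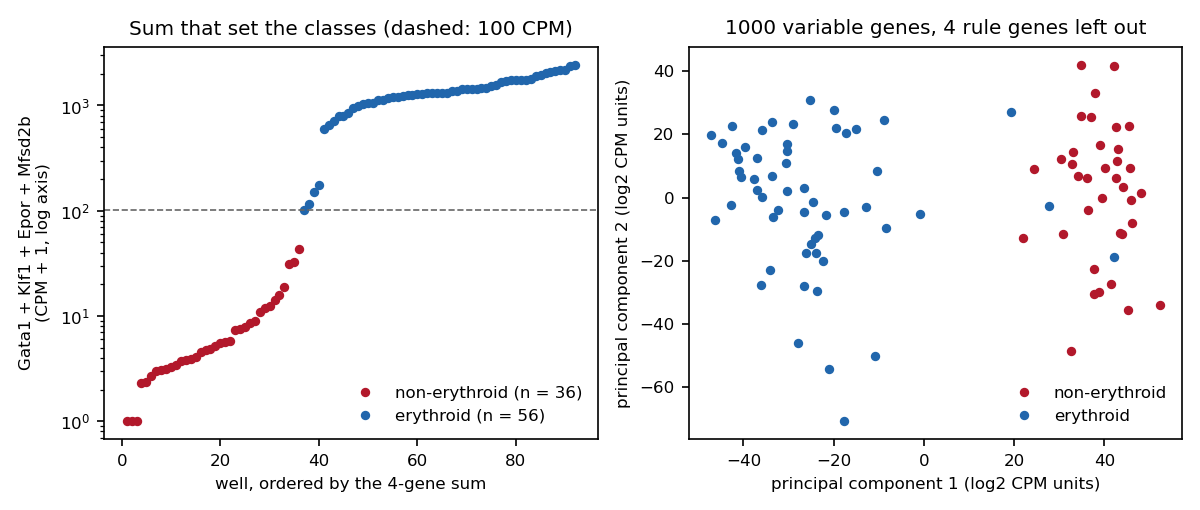
Left, the summed level of Gata1, Klf1, Epor and Mfsd2b (CPM + 1, log axis) of each of the 92 kept BFU-E wells, ordered by that sum, with the 100 CPM split dashed; 4 wells lie between 50 and 200 CPM. Right, the first 2 principal components of the wells from 1000 variable genes with the 4 rule genes left out; the 36 non-erythroid wells lie on one side together with 3 erythroid wells.

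Depth was alike in both classes, with medians of 1137538.5 counts (135135 to 2165811) per non-erythroid well and 1108993.5 counts (114288 to 3864040) per erythroid well. After each well was thinned to 100000 counts, medians of 6031 and 6137.5 genes had a count in non-erythroid and erythroid wells. All 96 index pairs were used on both plates, on different lanes, so no lane was shared between BFU-E and CFU-E wells. Both classes mixed wells of both sexes: at a level of 10 CPM, chosen after the data were seen, Xist alone was found in 15 and Y-linked genes alone in 19 of 36 non-erythroid wells, against 23 and 32 of 56 erythroid wells. The sex-linked genes had 0 of 5 measured genes higher and 0 lower by 2-fold or more (median log2 fold −0.27). Both kinds were found in 1 well of each class and neither in 1 non-erythroid well; whether any well held more than 1 cell was not tested. Each class is 1 sample, since no label names an animal and cells are not replicates, so no test was made and no difference below has a replicate check. Levels are CPM of the thinned sums, and ranges per well are unthinned CPM. Intervals of levels and folds are exact 95% intervals that cover counting error of reads only and leave out the spread between wells. PCR copies of a molecule were not marked and are not independent, so these intervals are too narrow for counts of molecules. The interval of a share of wells treats wells as independent, and the animals behind them are not given.

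Of 9940 genes with a mean of at least 5 CPM over both classes, 1316 (13.2%) were at least 2-fold higher in non-erythroid wells and 895 (9%) at least 2-fold lower. A difference of 10-fold or more was met by 282 genes that were higher and 132 that were lower. The median log2 fold of all measured genes was −0.0014, and this is the level against which the gene lists below are read. Counts of higher and lower list members are to be read beside the 13.2% and 9% of all measured genes. Log2 folds are non-erythroid over erythroid, of CPM + 1. A gene near 0 in one class is measured only when it is high enough in the other, so counts over the measured members of a list follow in part from the filter and are descriptions of those members alone. For no measured gene did every well of one class lie above every well of the other; wells 12, 54 and 91 were among those with both kinds of transcripts.

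**Figure D2:**
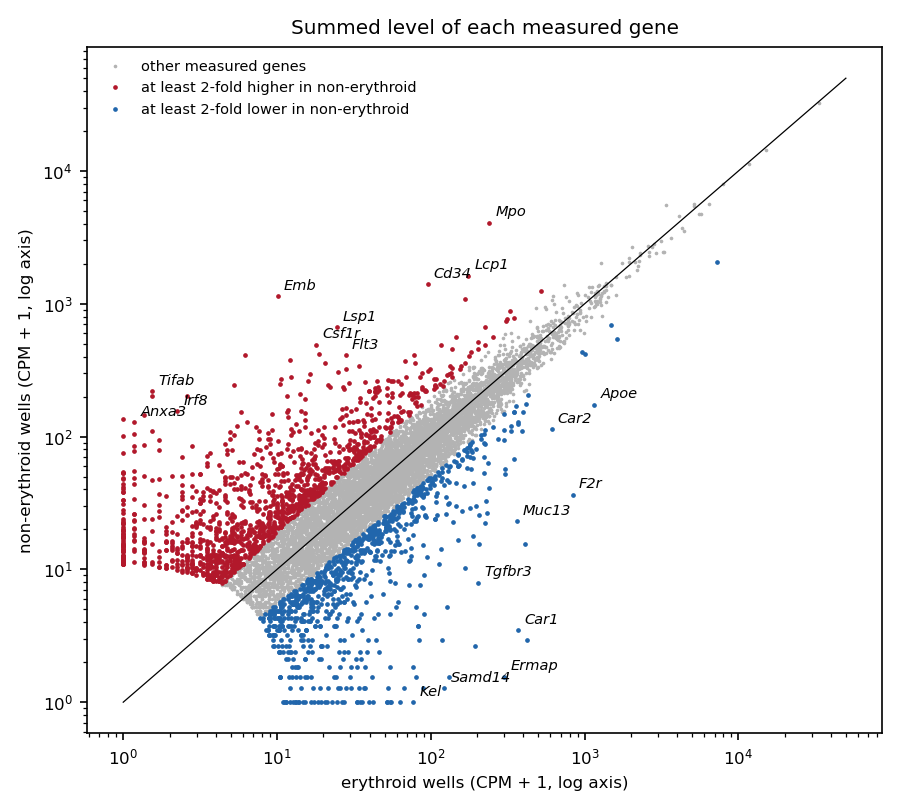
Summed CPM + 1 of each of the 9940 measured genes in non-erythroid wells (vertical, log axis) and erythroid wells (horizontal, log axis), with equal levels on the black line. Genes at least 2-fold higher in non-erythroid wells are red (1316) and those at least 2-fold lower are blue (895).

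The 4 markers of myeloid and multipotent progenitors were all higher in non-erythroid wells, without full separation of the classes. Mpo, the myeloperoxidase of azurophil granules, ranged from 1.31 to 15591 CPM per non-erythroid well with a median of 2923, against 0 to 5539.8 CPM per erythroid well with a median of 6.81. It stood at 4084 CPM (4019 to 4151) in the non-erythroid sum and 239.6 CPM (227 to 253) in the erythroid sum, 17-fold higher (16.1 to 18). Most erythroid wells lay far below the non-erythroid median, but the ranges overlapped, since 32 of 36 non-erythroid and 7 of 56 erythroid wells held at least 100 CPM. Cd34, a sialomucin of stem and progenitor cells, was the most even of the 4, from 237 to 3412 CPM per non-erythroid well with a median of 1362, against 0 to 1784 CPM per erythroid well with a median of 2.45. It was 14.9-fold higher (13.6 to 16.4), and 36 of 36 non-erythroid and 6 of 56 erythroid wells reached 100 CPM. Csf1r, the receptor of macrophage colony-stimulating factor, ranged from 0 to 2136 CPM per non-erythroid well with a median of 176, against 0 to 794 CPM per erythroid well with a median of 0.625, and was 29-fold higher (23.6 to 36.1) in the sums. Flt3, the receptor of FLT3 ligand on multipotent and lymphoid-primed progenitors, ranged from 0.687 to 1628 CPM per non-erythroid well with a median of 269.7, against 0 to 1084 CPM per erythroid well with a median of 0.704, and was 15.2-fold higher (12.9 to 18.1).

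Most of the marker counts in the erythroid class came from a few wells. At least 100 CPM of Mpo, Csf1r or Flt3 was found in 8 erythroid wells. With those wells left out, an alternative chosen after the data were seen, a choice that lowers these markers by construction, the erythroid sums held 11.7 CPM of Mpo, 1.46 of Csf1r, 1.25 of Flt3 and 6.04 of Cd34. Genes at least 2-fold higher then numbered 1491 and those lower 967. Within the non-erythroid class, 21 wells reached 100 CPM of both Mpo and Csf1r, 11 of Mpo alone, 2 of Csf1r alone and 2 of neither. All 4 markers reached it in 16 non-erythroid and 0 erythroid wells. Over the 36 non-erythroid wells, which share plate and lane, Spearman's rho was −0.55 between Mpo and Flt3 and −0.17 between Mpo and Csf1r, given as descriptions only.

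**Figure D3:**
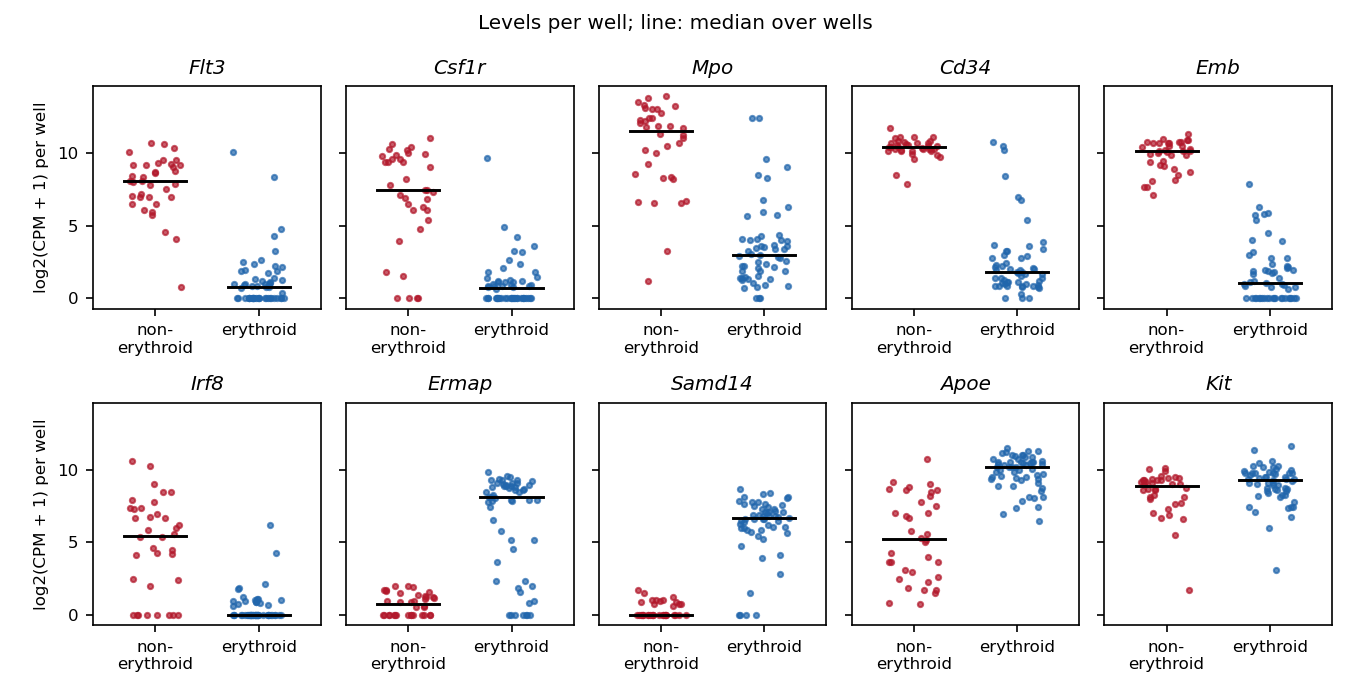
log2(CPM + 1) of 10 genes in each well, with 36 non-erythroid wells on the left and 56 erythroid wells on the right of each panel and a line at the median. Cd34 and Emb are high in nearly every non-erythroid well, Irf8 in some of them, and Kit overlaps between the classes.

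The transcripts of the surface proteins used in the sort differed in both directions. Kit, which encodes the stained CD117, was 1.47-fold lower (1.39 to 1.55) in non-erythroid wells at 473 CPM in non-erythroid and 695 CPM in erythroid wells. Tfrc, the transferrin receptor CD71, was 2.79-fold lower (2.51 to 3.11) with 119 CPM in non-erythroid and 331 CPM in erythroid wells, and Cd24a was 3.29-fold higher (2.9 to 3.75) with 206 CPM in non-erythroid and 62.5 CPM in erythroid wells. Transcripts of some depleted antigens were low but not absent in the non-erythroid class. Fcgr3, an antigen of the CD16/32 antibody, stood at 38.9 CPM in non-erythroid and 5.54 CPM in erythroid wells. Fcgr2b was at 15.8 CPM in non-erythroid and 1.61 CPM in erythroid wells. Itgam, the CD11b integrin chain, was at 14.7 CPM in non-erythroid and 1.07 CPM in erythroid wells. Itga2b, the CD41 integrin chain of megakaryocytes, went the other way at 21.4 CPM in non-erythroid and 225 CPM in erythroid wells, 10.5-fold lower (8.36 to 13.4). Ly6g and Cd3e had no count in either class, and Ly6a, which encodes Sca-1, had 0 counts in non-erythroid and 1 in erythroid wells. Ptprc, the CD45 phosphatase of white cells, was 3.9-fold higher (3.59 to 4.23) with 563 CPM in non-erythroid and 144 CPM in erythroid wells. The depleted CD45R is a form of this protein, and counts per gene do not resolve that form. As a list, the sort antigens had 5 of 8 measured genes higher and 2 lower by 2-fold or more (median log2 fold 1.83), and the part of the gate in these differences was not tested.

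Among the 15 highest genes in non-erythroid wells, ranked by log2 fold, were Tifab, Emb, Anxa3, Atp8b4, Clec12a, Themis2, Irf8, Ighm, Gria3, Fut7, Plac8, Lat2 and Gpr65. Emb encodes embigin, a membrane partner of monocarboxylate transporters, and ranged from 139 to 2601 CPM per non-erythroid well with a median of 1127, against 0 to 238 CPM per erythroid well with a median of 1.04. It was above every erythroid well in 33 of 36 non-erythroid wells, and was 125-fold higher (95.2 to 169) in the sums at 1142 CPM in non-erythroid and 9.11 CPM in erythroid wells. Tifab, a relative of the signalling adaptor TIFA, ranged from 0 to 1098 CPM per non-erythroid well with a median of 122, against 0 to 8.71 CPM per erythroid well with a median of 0; it had 787 thinned counts in non-erythroid and 3 in erythroid wells, a ratio of 408 (139 to 1983). Irf8, the transcription factor of monocyte and dendritic cell fate, ranged from 0 to 1549.6 CPM per non-erythroid well with a median of 43.2, against 0 to 70.8 CPM per erythroid well with a median of 0. It was 123-fold higher (59.2 to 307), but 14 of 36 non-erythroid wells held at least 100 CPM. Clec12a, an inhibitory lectin receptor of myeloid cells, had 266 thinned counts in non-erythroid and 0 in erythroid wells, at least 138-fold higher when 3 counts are taken as the floor of a class. Ighm, the constant region of the IgM heavy chain, was 79.2-fold higher (54.9 to 119) with 410 CPM in non-erythroid and 5.18 CPM in erythroid wells and reached 100 CPM in 22 of 36 non-erythroid and 1 of 56 erythroid wells. Fut7, a fucosyltransferase of leukocytes, stood at 49.7 CPM in non-erythroid and 0.357 CPM in erythroid wells with 2 erythroid counts. Plac8, a cysteine-rich protein of myeloid cells, was 33.7-fold higher (26.1 to 44.2), and was found at 100 CPM or more in 27 of 36 non-erythroid and 1 of 56 erythroid wells.

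The lowest genes were Ermap, Car1, Samd14, Slc38a5, Kel, Optn, Slc45a3, Tspo2, Sh2d4a, Ltbp1, Mylk3, Epdr1, Add2, Blvrb and Ank1. Ermap, an immunoglobulin-like protein of the red cell membrane, ranged from 0 to 2.89 CPM per non-erythroid well with a median of 0.686, against 0 to 927 CPM per erythroid well with a median of 271. Its 45 erythroid wells above every non-erythroid well left 11 that overlapped, and it had 2 thinned counts in non-erythroid and 1674 in erythroid wells, 538-fold lower (149 to 4447). Samd14, known in mouse as a GATA2 target that supports KIT signalling in erythroid progenitors, ranged from 0 to 2.3 CPM per non-erythroid well with a median of 0, against 0 to 415 CPM per erythroid well with a median of 99.3, so that 51 of 56 erythroid wells lay above all non-erythroid wells. Car1, a carbonic anhydrase of red cells, was 148-fold lower (77.6 to 323) with 2.5 CPM in non-erythroid and 369 CPM in erythroid wells. Kel, the Kell blood group peptidase, had 0 thinned counts in non-erythroid and 425 in erythroid wells and was at least 91.1-fold lower. Tspo2, a translocator protein of the erythroid lineage, Ltbp1, a binder of latent TGF-beta, Epdr1 and Ank1, the ankyrin that ties spectrin to the membrane, also had 0 counts in non-erythroid wells, against 53.2, 50.5, 40.9 and 34.8 CPM in erythroid wells. Optn, the autophagy receptor optineurin, was 116-fold lower (53.3 to 318) with 1.67 CPM in non-erythroid and 194 CPM in erythroid wells. Blvrb, the biliverdin reductase that acts downstream of heme breakdown, was 60.3-fold lower (29.1 to 151), and Slc38a5, an amino acid transporter, 234-fold lower (64.6 to 1938).

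**Figure D4:**
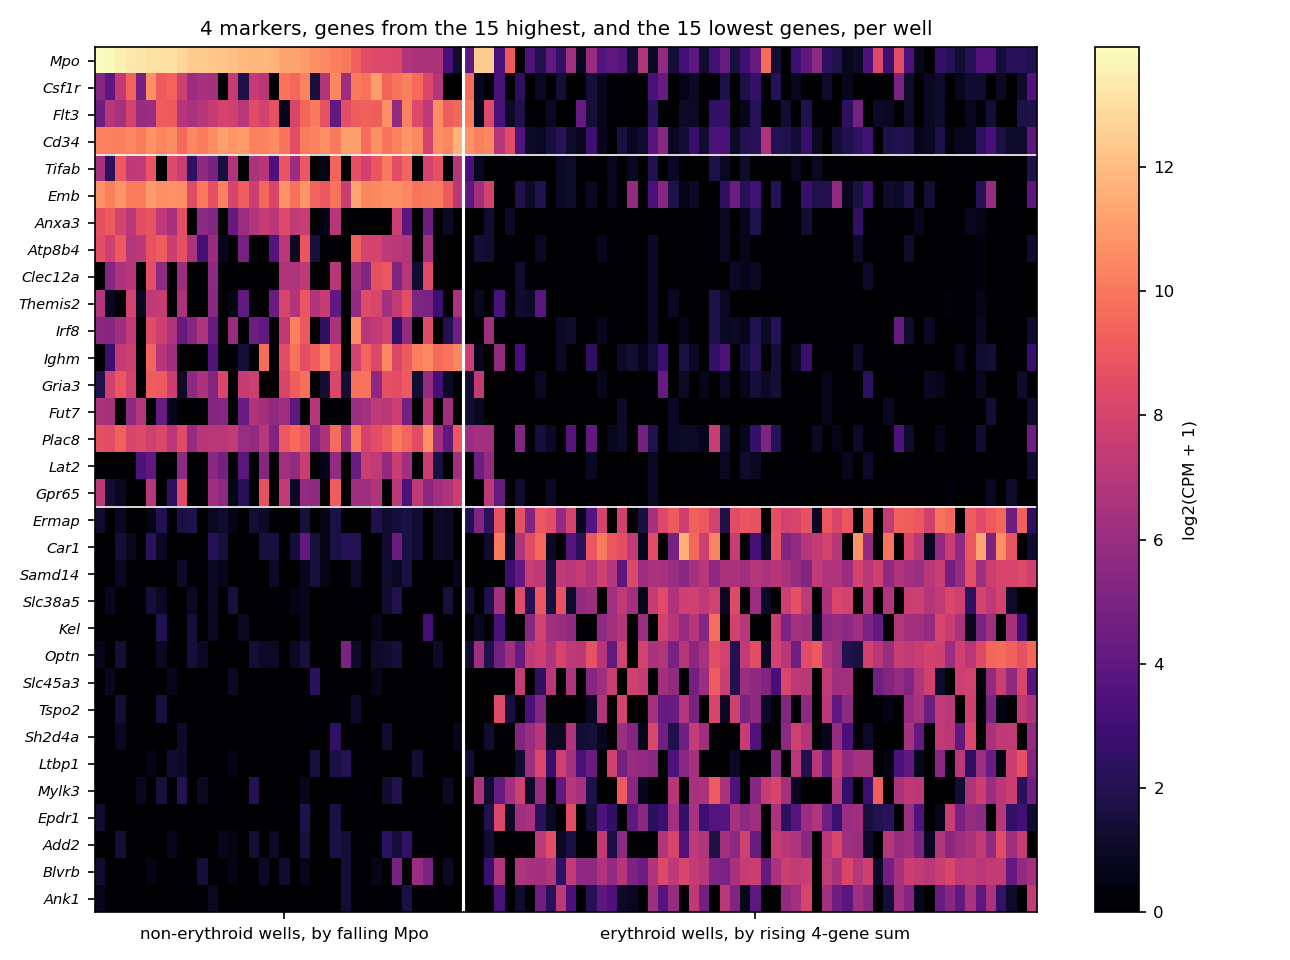
log2(CPM + 1) of the 4 markers (top rows), genes from the 15 highest, and the 15 lowest genes in each well. The 36 non-erythroid wells, left of the white line, are ordered by falling Mpo and the 56 erythroid wells by rising 4-gene sum. The first erythroid columns are thus wells 91, 54 and 12. Other erythroid wells with at least 100 CPM of Mpo lie further right, such as well 63 (sum 1326 CPM) and well 21 (sum 1726 CPM).

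Positions in GRCm38 are given for the genes at the ends of this ranking. Tifab (ENSMUSG00000049625) lies on chromosome 13 from 56173704 to 56178885. Emb (ENSMUSG00000021728) lies on chromosome 13 from 117208536 to 117274415. Clec12a (ENSMUSG00000053063) lies on chromosome 6 from 129342691 to 129365303. Ermap (ENSMUSG00000028644) lies on chromosome 4 from 119175457 to 119190011. Samd14 (ENSMUSG00000047181) lies on chromosome 11 from 95009879 to 95026087. Kel (ENSMUSG00000029866) lies on chromosome 6 from 41686330 to 41704339. All of them are protein-coding, and the counts do not resolve exons or transcript forms.

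Clec12a and Kel are a reciprocal pair, each without a thinned count in the other class, and Mpo is the most abundant marker, so the windows around their start sites are printed. They run from 250 bases before to 50 after the start in RefSeq's annotation of GRCm38.p6, 5′ to 3′ on the gene's strand. The Clec12a window is chr6:129349994-129350293 on the plus strand, the Mpo window chr11:87793534-87793833 on the plus strand and the Kel window chr6:41704276-41704575 on the minus strand. The Clec12a window lies inside the gene span given above, so RefSeq's start there is not the first base of that span. Which start these cells used was not tested. Capitals mark matches, on either strand, to the letters AGATAA for factors of the GATA family, GAGGAA for PU.1, CCACACCC for KLF factors or TTGCNNAA for C/EBP factors.
Clec12a: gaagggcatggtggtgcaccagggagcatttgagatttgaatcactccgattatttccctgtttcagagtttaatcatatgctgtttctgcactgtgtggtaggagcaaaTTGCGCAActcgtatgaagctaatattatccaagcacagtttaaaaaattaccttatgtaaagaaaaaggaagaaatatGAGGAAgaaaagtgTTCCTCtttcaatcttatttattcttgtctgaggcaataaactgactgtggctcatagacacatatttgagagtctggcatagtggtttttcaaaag
Mpo: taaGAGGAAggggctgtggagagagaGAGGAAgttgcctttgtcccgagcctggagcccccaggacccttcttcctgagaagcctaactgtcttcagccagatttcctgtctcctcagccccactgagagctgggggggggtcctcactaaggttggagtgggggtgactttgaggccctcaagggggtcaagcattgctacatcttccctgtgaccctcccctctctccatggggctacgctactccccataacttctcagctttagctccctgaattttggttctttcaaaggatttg
Kel: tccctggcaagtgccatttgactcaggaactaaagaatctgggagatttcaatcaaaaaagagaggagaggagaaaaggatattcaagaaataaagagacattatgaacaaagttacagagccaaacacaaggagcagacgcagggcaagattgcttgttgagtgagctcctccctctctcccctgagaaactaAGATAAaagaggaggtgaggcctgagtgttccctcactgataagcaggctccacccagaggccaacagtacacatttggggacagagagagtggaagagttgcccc
In capitals, Clec12a has 2 matches to the PU.1 letters and 1 to those of C/EBP. Mpo has 2 to the PU.1 letters, and Kel has 1 to the GATA letters. Windows of other named genes varied. Among higher genes, Flt3, Cd34, Irf8, Emb and Tifab had 0 matches. Themis2 had 1 match to the GATA letters, and Atp8b4 had 2 to the PU.1 letters. Among lower genes, Ermap, Add2 and Epdr1 had 0 matches. Tspo2 had 2 matches to the PU.1 letters, and a Mylk3 window had 2 to the GATA letters. Over all genes at least 4-fold higher (381 windows for 274 of 356 genes), GAGGAA was found in 37.8% of windows, against 26.8% of the 9733 windows of measured genes and 28.3% of all 32851 windows; for genes at least 4-fold lower (166 windows for 127 of 175 genes) it was 29.5%. AGATAA was in 6.3% of windows of the higher genes and 12.1% of the lower, beside 6.36% of measured and 11.2% of all windows. TTGCNNAA was in 12.1% and 7.23%, beside 8.18% and 10.8%, and CCACACCC in 3.67% and 4.22%, beside 3.61% and 3.56%. The letters were searched on both strands, different motifs may overlap in a window, and none of the printed matches do. A match is a description of the letters and not a bound site.

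Erythroid transcription factors had 0 of 21 measured genes higher and 6 lower by 2-fold or more (median log2 fold −0.54). Zfpm1, the cofactor FOG1 of GATA1, was 26.4-fold lower (7.07 to 221) with 0.556 CPM in non-erythroid and 14.6 CPM in erythroid wells, Gfi1b, a repressor needed for red cells and platelets, was 6.36-fold lower (5.18 to 7.88) with 28.1 CPM in non-erythroid and 178 CPM in erythroid wells, and Gata2, a GATA factor of early progenitors, stood 5.61-fold lower (3.91 to 8.31). Hes6 was the largest the other way, 49.7 CPM in non-erythroid and 25.9 CPM in erythroid wells. Red cell membrane and maturation genes had 1 of 24 measured genes higher and 17 lower by 2-fold or more (median log2 fold −3.62), or −2.93 with genes at 0 counts set to the floor. Ermap, Car1 and Kel belong here, and the exception was Sptbn1, a spectrin of non-erythroid cells, 2.49-fold higher (2.25 to 2.77). Heme synthesis and iron handling had 2 of 31 measured genes higher and 14 lower by 2-fold or more (median log2 fold −0.81). Fech, the ferrochelatase that puts iron into heme, was named after its values were seen and stood at 52.2 CPM in non-erythroid and 221 CPM in erythroid wells, and Alas1, the form of the first enzyme found in all tissues, likewise at 89.7 CPM in non-erythroid and 37.5 CPM in erythroid wells. Slc40a1, the iron exporter ferroportin, and Hebp1, a heme-binding protein, had no count in non-erythroid wells, against 32.1 and 12.7 CPM in erythroid wells, while Hfe, a regulator of iron uptake, was higher with 58 thinned counts in non-erythroid and 2 in erythroid wells. Counts of globin genes and of Alas2, the erythroid form of the first enzyme of heme synthesis, were low in both classes. The handling of multi-mapping reads is not given, so the levels of near-identical globin genes are uncertain. None of the 7 listed globin and chaperone genes in the table was measured, and Alas2 stood at 9.17 CPM in non-erythroid and 6.96 CPM in erythroid wells.

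Megakaryocyte-erythroid progenitor genes had 1 of 13 measured genes higher and 12 lower by 2-fold or more (median log2 fold −3.96). Atp1b2, a sodium pump subunit, had 0 thinned counts in non-erythroid and 305 in erythroid wells, and the exception was Cnrip1 at 24.2 CPM in non-erythroid and 8.04 CPM in erythroid wells. Apoe, Muc13, F2r and Car2, abundant in the erythroid wells, were named after their values were seen. Apoe, the lipid carrier apolipoprotein E, ranged from 0.657 to 1732 CPM per non-erythroid well with a median of 36.8, against 88.6 to 2883 CPM per erythroid well with a median of 1138, so the classes overlapped although it was 6.69-fold lower (6.16 to 7.28) in the sums. Muc13, a membrane mucin, was 16.3-fold lower (13 to 20.6) with 22.2 CPM in non-erythroid and 362 CPM in erythroid wells, F2r, the thrombin receptor, 23.5-fold lower (19.7 to 28.3) with 35.6 CPM in non-erythroid and 836 CPM in erythroid wells, and Car2, a carbonic anhydrase, 5.37-fold lower (4.84 to 5.96) with 113 CPM in non-erythroid and 609 CPM in erythroid wells. At least 100 CPM of Apoe was still found in 14 non-erythroid wells, of Car2 in 6 and of Muc13 in 3. Megakaryocyte markers had 0 of 8 measured genes higher and 5 lower by 2-fold or more (median log2 fold −2.32), and at a mean of at least 20 CPM, 0 of 5 were higher and 2 lower (median −0.29). Treml1 and Vwf, proteins of platelet granules, were at 0.278 CPM in non-erythroid and 23.9 CPM in erythroid wells and 1.39 CPM in non-erythroid and 28 CPM in erythroid wells, and Pf4 had no thinned count in either class. Erythropoietin signalling had 2 of 11 measured genes higher and 4 lower by 2-fold or more (median log2 fold −0.57), and this median was 0.18 when unthinned CPM were averaged over wells. Stat5a, the factor activated by the receptor, was 3.75-fold lower (3.25 to 4.33), and its targets Socs2 and Cish stood at 1.11 CPM in non-erythroid and 14.1 CPM in erythroid wells and 2.22 CPM in non-erythroid and 8.39 CPM in erythroid wells.

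Granule proteins had 10 of 13 measured genes higher and 0 lower by 2-fold or more (median log2 fold 3.66), or 3.41 with genes at 0 counts set to the floor. Ctsg, the serine protease cathepsin G, had 481 thinned counts in non-erythroid and 0 in erythroid wells, at least 249-fold higher, yet only 7 of 36 non-erythroid wells reached 100 CPM. Prtn3, proteinase 3 (named after its values were seen), was broader, from 2.16 to 895 CPM per non-erythroid well with a median of 211, against 0 to 140.4 CPM per erythroid well with a median of 2.51. Clec5a, a lectin receptor of myeloid cells, was at 25.6 CPM in non-erythroid and 0 CPM in erythroid wells, and Cd63, a tetraspanin of granule membranes, was the largest the other way at 19.4 CPM in non-erythroid and 33.8 CPM in erythroid wells. Myeloid and lymphoid transcription factors had 9 of 17 measured genes higher and 1 lower by 2-fold or more (median log2 fold 1.14). Id2, an inhibitor of E proteins, was 46.1-fold higher (20.8 to 127) with 49.4 CPM in non-erythroid and 1.07 CPM in erythroid wells, Irf5 25.1-fold higher (14.7 to 46.7) with 62.8 CPM in non-erythroid and 2.5 CPM in erythroid wells, and Spi1, which encodes PU.1 and was named after its values were seen, 4.83-fold higher (3.48 to 6.8) with 42.2 CPM in non-erythroid and 8.75 CPM in erythroid wells. Tcf3, an E protein of lymphoid and erythroid cells, was lower at 14.7 CPM in non-erythroid and 40.5 CPM in erythroid wells, and this call was lost under 4 of the alternatives.

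Lysosomal proteins had 10 of 23 measured genes higher and 0 lower by 2-fold or more (median log2 fold 0.84), led by Ctss, Ctsh and Lgmn, which encode lysosomal proteases. Ctss stood at 77.2 CPM in non-erythroid and 0.179 CPM in erythroid wells and Ctsh at 47.5 CPM in non-erythroid and 0.179 CPM in erythroid wells, each with 1 erythroid count, and Lgmn at 34.7 CPM in non-erythroid and 0.893 CPM in erythroid wells. The NADPH oxidase had 5 of 7 measured genes higher and 0 lower by 2-fold or more (median log2 fold 1.38). The cytosolic subunit Ncf1 ranged from 0 to 636 CPM per non-erythroid well with a median of 213, against 0 to 513 CPM per erythroid well with a median of 0, and reached 100 CPM in 26 of 36 non-erythroid and 1 of 56 erythroid wells. Cybb, the catalytic membrane subunit, was concentrated in fewer wells, with a median of 0 and a highest well of 846 CPM in the non-erythroid class against 399 CPM in the erythroid class. Ncf4 was 48.2-fold higher (24.1 to 113) with 68.9 CPM in non-erythroid and 1.43 CPM in erythroid wells.

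Cytokine and growth factor receptors had 16 of 24 measured genes higher and 1 lower by 2-fold or more (median log2 fold 1.72). Csf2rb, the beta chain shared by the receptors of GM-CSF, IL-3 and IL-5, was 31.6-fold higher (21.5 to 48.4) with 152 CPM in non-erythroid and 4.82 CPM in erythroid wells and reached 100 CPM in 19 of 36 non-erythroid and 1 of 56 erythroid wells; Il1rl1, the IL-33 receptor of mast cells, was 23.3-fold lower (8.91 to 86.7). Leukocyte kinases and adaptors had 18 of 26 measured genes higher and 0 lower by 2-fold or more (median log2 fold 2.04). Casp1, the inflammasome protease, stood at 30.3 CPM in non-erythroid wells and had no count in erythroid wells, while Inpp5d, the SHIP1 phosphatase, was level at 128 CPM in non-erythroid and 128 CPM in erythroid wells. Surface and adhesion proteins had 15 of 26 measured genes higher and 0 lower by 2-fold or more (median log2 fold 1.41). Actin regulators had 16 of 28 measured genes higher and 1 lower by 2-fold or more (median log2 fold 1.14). Lsp1, an actin-binding protein of leukocytes, ranged from 28.1 to 2347 CPM per non-erythroid well with a median of 479.9, against 0 to 1004 CPM per erythroid well with a median of 0.772, and was 28.3-fold higher (23.7 to 34) in the sums. Lcp1, the actin bundler L-plastin, was abundant in both at 1630 CPM in non-erythroid and 174 CPM in erythroid wells, and Myo1f, a class I myosin, at 338 CPM in non-erythroid and 33 CPM in erythroid wells. Fermt3, the kindlin that activates integrins, was the exception at 435 CPM in non-erythroid and 955 CPM in erythroid wells, 2.2-fold lower (2.08 to 2.33).

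Inflammatory mediators had 9 of 13 measured genes higher and 1 lower by 2-fold or more (median log2 fold 2.95). Ccr2, the chemokine receptor of monocytes, ranged from 0 to 1649 CPM per non-erythroid well with a median of 0.453, against 0 to 6.84 CPM per erythroid well with a median of 0, and had 727 thinned counts in non-erythroid and 3 in erythroid wells. It reached 100 CPM in 12 of 36 non-erythroid and 0 of 56 erythroid wells. Anxa3, an annexin of myeloid cells, had 458 thinned counts in non-erythroid and 1 in erythroid wells, and Ccr1, another chemokine receptor, 168 thinned counts in non-erythroid and 0 in erythroid wells. Alox5, the leukotriene-forming lipoxygenase, was lower at 1.11 CPM in non-erythroid and 14.1 CPM in erythroid wells. Antigen presentation and interferon genes had 6 of 18 measured genes higher and 0 lower by 2-fold or more (median log2 fold 0.65). The immunoproteasome subunit Psmb8 was 4.71-fold higher (4.06 to 5.47) with 201 CPM in non-erythroid and 42.7 CPM in erythroid wells, Ifitm3 8.99-fold higher (6.86 to 11.9), and Mx1 at 16.7 CPM in non-erythroid and 0 CPM in erythroid wells, with 45% of its counts in 1 well.

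Granulocyte-monocyte progenitor markers had 12 of 12 measured genes higher and 0 lower by 2-fold or more (median log2 fold 4.03), or 3.96 at the floor; without the filter on low levels, 14 of 15 were higher and 0 lower (median 3.88). That list includes the 4 markers above and Irf8 and Clec12a, so it is not separate from them. Monocyte markers, which include Csf1r, had 8 of 8 measured genes higher and 0 lower by 2-fold or more (median log2 fold 4.34). Without the filter on low levels, 10 of 10 were higher and 0 lower (median 3.75). Ly86, a partner of RP105 on monocytes, had 358 thinned counts in non-erythroid and 0 in erythroid wells, Ms4a6c 376 thinned counts in non-erythroid and 1 in erythroid wells, and Lyz2, the lysozyme of myeloid cells, stood at 226 CPM in non-erythroid and 26.1 CPM in erythroid wells; F13a1, the coagulation factor XIII subunit of monocytes, was 16.1-fold higher (12.6 to 20.7). Cd14, a marker of mature monocytes, had no thinned count in either class. Of 13 neutrophil markers only Cxcr2 and Mmp8 were measured, both higher, Mmp8 not so in unthinned sums. Cxcr2 stood at 51.4 CPM in non-erythroid and 2.14 CPM in erythroid wells. Mmp8 stood at 7.78 CPM in non-erythroid and 2.86 CPM in erythroid wells. The neutrophil markers S100a8, Camp and Cebpe had no thinned count. Of the macrophage list, Csf1r alone was measured, and Adgre1, the F4/80 antigen, stood at 8.33 CPM in non-erythroid and 0.357 CPM in erythroid wells.

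Lymphoid markers had 4 of 4 measured genes higher and 0 lower by 2-fold or more (median log2 fold 3.93), or 3.62 at the floor; without the filter on low levels, 10 of 11 were higher and 1 lower (median 2.37). Their sum per well had a median of 126 CPM in non-erythroid and 0 CPM in erythroid wells, and at least 100 CPM of Cd79b, a chain of the B cell receptor, was found in 11 of 36 non-erythroid and 2 of 56 erythroid wells. Of the 17 markers, 13 were not measured, and Dntt, Pax5 and Cd3e had no thinned count in either class. Il7r, the receptor of interleukin 7, had 146 thinned counts in non-erythroid and 0 in erythroid wells, but 1 well held 67.1% of its non-erythroid counts, and only 2 wells reached 100 CPM. BFU-E well 18 had 861 CPM of Il7r beside 1628 of Flt3, 466 of Notch1, 216 of Rag2 and 313 of Mpo. In BFU-E well 73, where Mpo was 1.31 CPM, Il7r was 90.7, Rag2 96.6, Flt3 722 and Ighm 1424 CPM. Dendritic cell markers had 3 of 5 measured genes higher and 0 lower by 2-fold or more (median log2 fold 3.88), or 3.36 at the floor. The list depends on the filter: at a mean of at least 20 CPM, 1 of 3 were higher and 0 lower (median 0.95), and without the filter on low levels, 7 of 12 were higher and 3 lower (median 0.90); in unthinned sums the median was 2.32. Flt3 is one of its members, and the list's sum per well ranged from 94.8 to 2234 CPM in non-erythroid and from 0 to 1544 CPM in erythroid wells. At least 100 CPM of Siglech, a lectin of plasmacytoid dendritic cells, was found in 3 non-erythroid wells, all of which also reached it for Csf1r and Flt3. Mast cell, basophil and eosinophil markers had 2 of 4 measured genes higher and 1 lower by 2-fold or more (median log2 fold 0.75). Hdc, the histamine-forming enzyme, stood at 61.1 CPM in non-erythroid and 22.9 CPM in erythroid wells and Cpa3, a mast cell protease, at 53.1 CPM in non-erythroid and 48.6 CPM in erythroid wells, and the call of Hdc was lost with another thinning seed. Each reached 100 CPM in 5 non-erythroid wells, none of which reached it for Irf8. Hdc also did so in 5 erythroid wells and Cpa3 in 2, where its highest well held 1926 CPM. Of the Irf8 wells, 13 of 14 also reached 100 CPM of Csf1r, as did 11 of the 12 Ccr2 wells.

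Stem and multipotent progenitor genes had 8 of 24 measured genes higher and 2 lower by 2-fold or more (median log2 fold 0.70). Adgrl4, an adhesion receptor, was 19.3-fold higher (15.5 to 24.4) and ranged from 0 to 1435 CPM per non-erythroid well with a median of 49.7, against 0 to 336 CPM per erythroid well with a median of 0, and Satb1, a chromatin organiser of lymphoid-primed progenitors, was 17.8-fold higher (13.1 to 24.6) with 146 CPM in non-erythroid and 8.21 CPM in erythroid wells. Tek, the angiopoietin receptor of stem cells, was lower at 16.9 CPM in non-erythroid and 59.5 CPM in erythroid wells. The fetal LIN28B and HMGA2 programme had 2 of 9 measured genes higher and 1 lower by 2-fold or more (median log2 fold 0.40). The chromatin protein Hmga2 was 9.14-fold higher (7.65 to 11) with 235 CPM in non-erythroid and 25.7 CPM in erythroid wells, and was above all erythroid wells in 22 of 36 non-erythroid wells. Glucocorticoid response and BFU-E renewal had 1 of 7 measured genes higher and 2 lower by 2-fold or more (median log2 fold −0.33), and the median was 0.19 with another thinning seed. The higher gene, the kinase gene Sgk1, lost its call with that seed, and the lower genes were Tgfbr3 and Nr3c1. Tgfbr3, the betaglycan co-receptor of TGF-beta, ranged from 0 to 129 CPM per non-erythroid well with a median of 0, against 0 to 543 CPM per erythroid well with a median of 187, and Nr3c1, the nuclear receptor that binds glucocorticoids, stood 5.99-fold lower (4.85 to 7.47) with 26.7 CPM in non-erythroid and 159.6 CPM in erythroid wells. Sphingosine 1-phosphate signalling had 4 of 15 measured genes higher and 1 lower by 2-fold or more (median log2 fold 0.09). The receptor genes went opposite ways, with S1pr3 at 18.6 CPM in non-erythroid and 0 CPM in erythroid wells and S1pr4 at 20.8 CPM in non-erythroid and 73.8 CPM in erythroid wells.

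**Figure D5:**
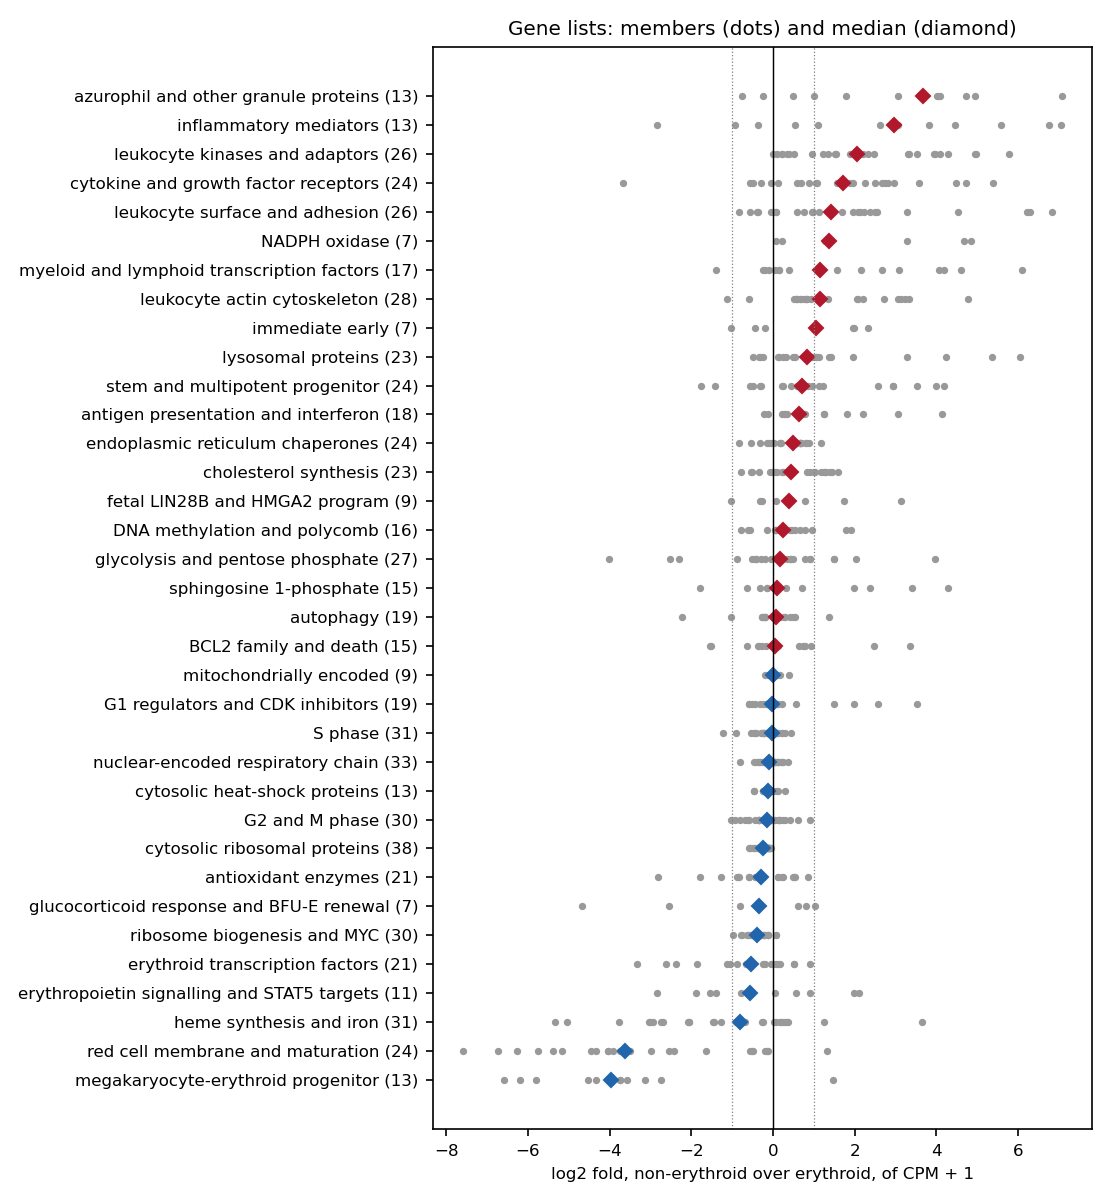
log2 fold (non-erythroid over erythroid, of CPM + 1) of the measured members of each pathway list with at least 5 of them (dots, number in brackets) and their median (diamond, red above 0 and blue below), with dotted lines at 2-fold. Granule, inflammatory and kinase lists lie highest, growth and respiration lists near 0, and red cell membrane and megakaryocyte-erythroid lists lowest.

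S phase had 0 of 31 measured genes higher and 1 lower by 2-fold or more (median log2 fold −0.04). G2 and M phase had 0 of 30 measured genes higher and 1 lower by 2-fold or more (median log2 fold −0.16); the lower gene, the spindle protein Nusap1, lost its call under 4 of the alternatives. G1 regulators had 4 of 19 measured genes higher and 0 lower by 2-fold or more (median log2 fold −0.02). Ccne1, a cyclin that drives entry into S phase and is not counted in that list, was 2.41-fold lower (1.87 to 3.13). Ccng2, a cyclin of cell cycle exit, was 15.9-fold higher (8.99 to 30.7) with 36.9 CPM in non-erythroid and 2.32 CPM in erythroid wells. Ribosome biogenesis had 0 of 30 measured genes higher and 1 lower by 2-fold or more (median log2 fold −0.40), while cytosolic ribosomal proteins had 0 of 38 measured genes higher and 0 lower by 2-fold or more (median log2 fold −0.23), a median of 0.04 with the split at 200 CPM. The nuclear-encoded respiratory chain had 0 of 33 measured genes higher and 0 lower by 2-fold or more (median log2 fold −0.09), and mitochondrially encoded genes had 0 of 9 measured genes higher and 0 lower by 2-fold or more (median log2 fold −0.01). Glycolysis and the pentose phosphate pathway had 4 of 27 measured genes higher and 3 lower by 2-fold or more (median log2 fold 0.17), shares close to the 13.2% and 9% of all measured genes. Hk3, the hexokinase of myeloid cells, was at 22.8 CPM in non-erythroid and 0.536 CPM in erythroid wells, and Pklr, the pyruvate kinase of red cells and liver, at 1.39 CPM in non-erythroid and 37.7 CPM in erythroid wells, 27.1-fold lower (11.4 to 84.4).

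Cholesterol synthesis had 9 of 23 measured genes higher and 0 lower by 2-fold or more (median log2 fold 0.45), but when the well with the most counts of each gene was left out, 0 of 22 were higher and 1 was lower, and unthinned sums had 2 higher. BFU-E well 56 held 2970 CPM of Hmgcs1, the enzyme before HMG-CoA reductase, and the summed list reached 14766 CPM in the highest non-erythroid well against a median of 884. Endoplasmic reticulum chaperones had 1 of 24 measured genes higher and 0 lower by 2-fold or more (median log2 fold 0.49). Hspa5, the BiP chaperone, was 1.85-fold higher (1.77 to 1.93), at 1149 CPM in non-erythroid and 622 CPM in erythroid wells. Cytosolic heat-shock proteins had 0 of 13 measured genes higher and 0 lower by 2-fold or more (median log2 fold −0.12). Immediate early genes had 4 of 7 measured genes higher and 1 lower by 2-fold or more (median log2 fold 1.05), with Jun, a subunit of the AP-1 factor, at 16.1 CPM in non-erythroid and 3.39 CPM in erythroid wells. The call of Junb, another subunit, was lost under 6 of the alternatives. The BCL2 family and death genes had 2 of 15 measured genes higher and 2 lower by 2-fold or more (median log2 fold 0.04). These shares are not far from the 13.2% and 9% of all measured genes. Bcl2, an inhibitor of apoptosis, was 5.97-fold higher (4.42 to 8.18) with 58.6 CPM in non-erythroid and 9.82 CPM in erythroid wells, and Bnip3l, the receptor that clears mitochondria from maturing red cells, 2.95-fold lower (2.66 to 3.27) with 124 CPM in non-erythroid and 367 CPM in erythroid wells. Autophagy had 1 of 19 measured genes higher and 2 lower by 2-fold or more (median log2 fold 0.08). Antioxidant enzymes had 0 of 21 measured genes higher and 3 lower by 2-fold or more (median log2 fold −0.29), and among the lower ones Gclc, a subunit of the enzyme that starts glutathione synthesis, turned direction with the split at 200 CPM. DNA methylation and polycomb had 2 of 16 measured genes higher and 0 lower by 2-fold or more (median log2 fold 0.25). The higher share is close to the 13.2% of all measured genes. Prdx6, a peroxiredoxin, was 2.4-fold lower (2.27 to 2.54) with 421 CPM in non-erythroid and 1010.2 CPM in erythroid wells, and Tet1, a methylcytosine dioxygenase, 3.88-fold higher (3.15 to 4.81) with 88.1 CPM in non-erythroid and 22.7 CPM in erythroid wells.

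Hepatocyte markers had 1 of 7 measured genes higher and 1 lower by 2-fold or more (median log2 fold −0.09). The lower one was Fgb, a fibrinogen chain, which had 73.3% of its erythroid counts in 1 well and turned direction with the split at 200 CPM. With 7 genes measured, the list's shares are not far from the 13.2% and 9% of all measured genes. Alb, serum albumin, stood at 83.9 CPM in non-erythroid and 90.9 CPM in erythroid wells and Afp, alpha-fetoprotein, at 85.3 CPM in non-erythroid and 91.1 CPM in erythroid wells, each found at 100 CPM or more in 11 and 10 non-erythroid and 16 and 15 erythroid wells. Endothelial and stromal markers had 2 of 4 measured genes higher and 2 lower by 2-fold or more (median log2 fold 0.10), with Pecam1, which white cells also express, at 127 CPM in non-erythroid and 28.4 CPM in erythroid wells and Col1a2, a collagen chain, at 0 CPM in non-erythroid and 11.8 CPM in erythroid wells. Mature erythroblast markers had 0 of 3 measured genes higher and 2 lower by 2-fold or more (median log2 fold −3.91). The part of RNA from such cells in the differences above was not tested.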

How the data were processed

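The authors deposited raw read counts for each gene. The submitters' processing notes name STAR 2.4, GRCm38 and featureCounts without its version; the sources used here do not give the annotation release, strand use or handling of multi-mapping reads, so near-identical and overlapping genes are uncertain. Of the table's columns, 1 of per-sample values was not used. The 92 of 96 BFU-E wells that passed minima of 100000 counts and 2000 genes were thinned to 100000 counts (seed 1) and summed to 3600000 counts for non-erythroid and 5600000 for erythroid wells. Levels carry exact Poisson intervals, folds exact conditional binomial intervals, shares Clopper-Pearson intervals. A gene was measured at a mean of 5 CPM over both classes and called at 2-fold; the floor was 3 counts per class, 0.833 CPM in non-erythroid and 0.536 CPM in erythroid wells. The labels describe single cells per well; no doublet caller was run. Gene positions came from GENCODE M21. Python 3.11.15, scipy 1.17.1, scikit-learn 1.9.0 (Ward clusters on 10 principal components), R 4.3.3 and edgeR 4.0.16 (scaling factors only) were used. The code of the contrast was run on simulated counts with known changes and independent noise for each gene and well. That run does not cover changes in genes near the filter or genes that vary together between wells. The members, the 49 gene lists and the tests were chosen with earlier results of these data known. The text names the 15 genes at either end of the log2 folds with at least 20 CPM and a count in at least 50% of thinned wells of the higher class (predicted genes and pseudogenes left out), the 3 largest members and the largest exception of each list, the sort antigens, the 4 markers and the 3 most abundant genes of each marker list. Apoe, Muc13, F2r, Car2, Prtn3, Spi1, Fech, Alas1 and the wells and absent markers singled out were named after their values were seen. Some genes that this rule selects are not reported here. Alternatives covered the split, the wells used, thinning, scaling, pseudocount and the filter on low levels.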

Additional observations from a re-analysis of the deposited data

Results flagged for a closer look

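Outside the comparison, 3 kept wells of the CFU-E plate lay under 100 CPM of the 4-gene sum, although they were sorted as later red cell progenitors. CFU-E wells 33, 35 and 91 held 3069, 2133 and 3437 CPM over 17 lymphoid markers, with a count for 10 of these markers in each well. Their granulocyte-monocyte progenitor markers summed to 230.5, 69.98 and 494 CPM, and Mpo, Csf1r and Cd34 were at 0 in all 3. Flt3 was at 196, 0 and 489 CPM. All 36 non-erythroid BFU-E wells held at least 100 CPM of Cd34.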

How the results depend on the processing

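The count of non-erythroid wells was 36 to 40 under other splits and 39 by clusters made without the 4 genes. Counts of genes at least 2-fold higher and lower moved by over 1.5 times only with the filter on low levels: 628 and 419 at a mean CPM of at least 20, and 4875 and 5001 with no filter, where genes of a few counts dominate by construction. Under the other settings they lay between 1082 and 1491 and between 858 and 1027. TMM and median-of-ratios scaling moved the median log2 fold to −0.05 and −0.04. Of 142 called named genes, at most 7 lost the call under any setting (unthinned sums). With the split at 200 CPM, the log2 fold of Gclc became 0.40 and that of Fgb 1.97, the reverse of their main direction; BFU-E well 74 and the other 3 wells that change class there hold under 200 CPM, and the cause was not tested. Without the top well of each gene, Hmgcs1, Tm7sf2 and Hsd17b7 were no longer called. Across all lists, counts and named genes, 140 list counts and 381 named values moved, and 1624 and 3361 stayed. At a mean CPM of at least 20, counts of higher and lower genes moved by over 1.5 times in 14 and 13 of 49 lists. No paired analysis was possible because each class is 1 sample. Depth limits genes near the filter of 5 CPM, and an absent gene may lie at up to 0.833 CPM in non-erythroid and 0.536 CPM in erythroid wells.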
